A study of Rattus norvegicus with 6 samples.

Results

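Interferon-induced genes are the genes that cells switch on when interferon binds its receptors at the cell surface. A list of 41 of them was followed here in rat hearts, and 38 of the 41 had a row with their gene symbol on the array, out of 15037 genes with a symbol in all. Each of the 38 had 1 row, so no choice between rows was needed. The other 3, Herc6, Ifi44l and Xaf1, had no row with their symbol, so only their promoters were examined here. Whole-heart RNA had been hybridised to 6 Clariom S Rat microarrays, single-channel arrays that give 1 value per transcript, with 2 arrays in each of 3 groups. TAC-R hearts had been released from a transverse aortic constriction. TAC hearts were still under it, with a silk ligature narrowing the aortic arch and loading the left ventricle. Normal hearts were called healthy by the labels, whose surgery text describes control rats opened without a ligature but leaves unstated if those gave the normal hearts. All animals were male Sprague-Dawley rats, with 10 weeks given as their age under isoflurane surgery, and the labels give no genotype, drug, time under constriction or time after release. Nothing in the labels ties the arrays of a pair to different rats. The p-values therefore reflect the spread among arrays alone, and that spread may be technical.

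In background, type I interferons act through the receptor chains Ifnar1 and Ifnar2 and the kinases Jak1 and Tyk2. These activate a complex that includes Irf9 and binds the interferon-stimulated response element in the promoters of target genes. Interferon gamma acts through a different receptor and through the gamma-activated site. The induced proteins sense viral RNA, block translation, trap virus particles or, as with Usp18, turn the signal off again, and in the heart they are known from viral myocarditis and from the response to nucleic acids set free by dying cells.

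Promoter windows of some of the genes that the results turn on are shown first. Sequence played no part in the choice of the members, which were chosen with earlier results of these data known. RefSeq windows of 300 bases on the GRCr8 build, from 250 bases before to 50 after the annotated start, were found for 31 of the 41 members. None was found for Usp18, Ifi27l2b, Mx2, Oas2, Ifit1, Ifit2, Isg15, Dhx58, Zbp1 and Ifitm1. Among these, Usp18, Oas2, Ifi27l2b and Ifit1 were called in a comparison below, so their promoters were not searched. The core of the response element was searched on both strands as GAAA, any 2 bases and GAAA. It was present in 20 of the 31 windows, 64.5%, against 3.92% of 33469 RefSeq windows of the same length. The gamma-activated site, searched as TTC, any 3 bases and GAA, which reads the same on both strands, was present in 8 of the 31, 25.8%, against 8.87% of all windows. In Bst2 the match to the gamma-activated site overlapped a response element match. These are matches of letters and not measured binding.

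Of the 31 windows 6 are printed, 5′ to 3′ on the gene's strand, with any match to the response element core in capitals. Ifi27 (chr6:128355062-128355361, plus strand) and Irf7 (chr1:205799974-205800273, minus strand) are shown because the normal arrays had lower signals for them than both the TAC-R and the TAC arrays. Oas1b (chr12:41395803-41396102, minus strand) and Lgals3bp (chr10:104127799-104128098, minus strand) are shown as further members called under TAC. Gbp2 (chr2:234005477-234005776, plus strand) is shown for TAC-R signals close to the normal ones. Mx1 (chr11:50294557-50294856, minus strand) is shown as a called member without a match in the window.
Ifi27: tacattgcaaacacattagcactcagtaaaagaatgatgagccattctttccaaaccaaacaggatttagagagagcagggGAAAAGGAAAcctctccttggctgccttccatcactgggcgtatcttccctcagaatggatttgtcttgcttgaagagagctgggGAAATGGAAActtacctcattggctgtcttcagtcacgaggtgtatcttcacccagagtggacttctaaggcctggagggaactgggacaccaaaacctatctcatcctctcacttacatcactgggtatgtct
Irf7: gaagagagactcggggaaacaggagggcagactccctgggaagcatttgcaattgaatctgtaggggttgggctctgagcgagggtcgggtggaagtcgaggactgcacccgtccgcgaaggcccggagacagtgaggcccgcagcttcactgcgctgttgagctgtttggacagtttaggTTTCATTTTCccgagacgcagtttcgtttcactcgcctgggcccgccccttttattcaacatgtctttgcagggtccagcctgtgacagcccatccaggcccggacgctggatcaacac
Oas1b: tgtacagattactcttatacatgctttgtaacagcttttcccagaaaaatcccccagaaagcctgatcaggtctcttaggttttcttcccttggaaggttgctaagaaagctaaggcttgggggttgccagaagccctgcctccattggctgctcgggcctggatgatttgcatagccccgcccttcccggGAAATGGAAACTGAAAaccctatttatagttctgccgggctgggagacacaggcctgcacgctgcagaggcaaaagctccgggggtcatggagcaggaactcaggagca
Lgals3bp: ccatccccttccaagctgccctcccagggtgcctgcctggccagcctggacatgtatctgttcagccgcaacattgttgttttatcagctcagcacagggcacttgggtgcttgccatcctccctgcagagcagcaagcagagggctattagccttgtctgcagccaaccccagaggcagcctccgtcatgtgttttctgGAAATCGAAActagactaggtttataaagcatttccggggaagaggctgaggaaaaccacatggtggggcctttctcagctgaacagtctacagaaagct
Gbp2: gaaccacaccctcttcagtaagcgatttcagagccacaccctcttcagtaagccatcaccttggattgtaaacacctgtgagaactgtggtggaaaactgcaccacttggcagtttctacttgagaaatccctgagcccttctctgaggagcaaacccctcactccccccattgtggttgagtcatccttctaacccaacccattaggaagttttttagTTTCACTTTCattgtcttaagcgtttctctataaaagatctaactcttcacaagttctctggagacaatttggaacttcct
Mx1: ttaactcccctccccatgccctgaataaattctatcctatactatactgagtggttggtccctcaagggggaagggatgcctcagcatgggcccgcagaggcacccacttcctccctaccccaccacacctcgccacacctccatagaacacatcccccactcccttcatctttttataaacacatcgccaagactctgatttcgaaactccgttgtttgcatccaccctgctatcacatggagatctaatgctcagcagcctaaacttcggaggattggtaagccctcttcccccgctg

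Ifi27 had 2 separate matches, starting at -169 and -84 relative to the annotated start, and Oas1b had 2 overlapping ones at -59 and -53. Single matches started at -69 in Irf7, -50 in Lgals3bp and -31 in Gbp2. Bst2 and Oas1a also had 2 overlapping matches each. No match was found in the windows of Cmpk2, Herc6, Ifi35, Irf1, Irf9, Mx1, Oasl, Parp9, Slfn4, Stat2 and Trim25, which says only that these letters are not in this stretch.

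**Figure D1:**
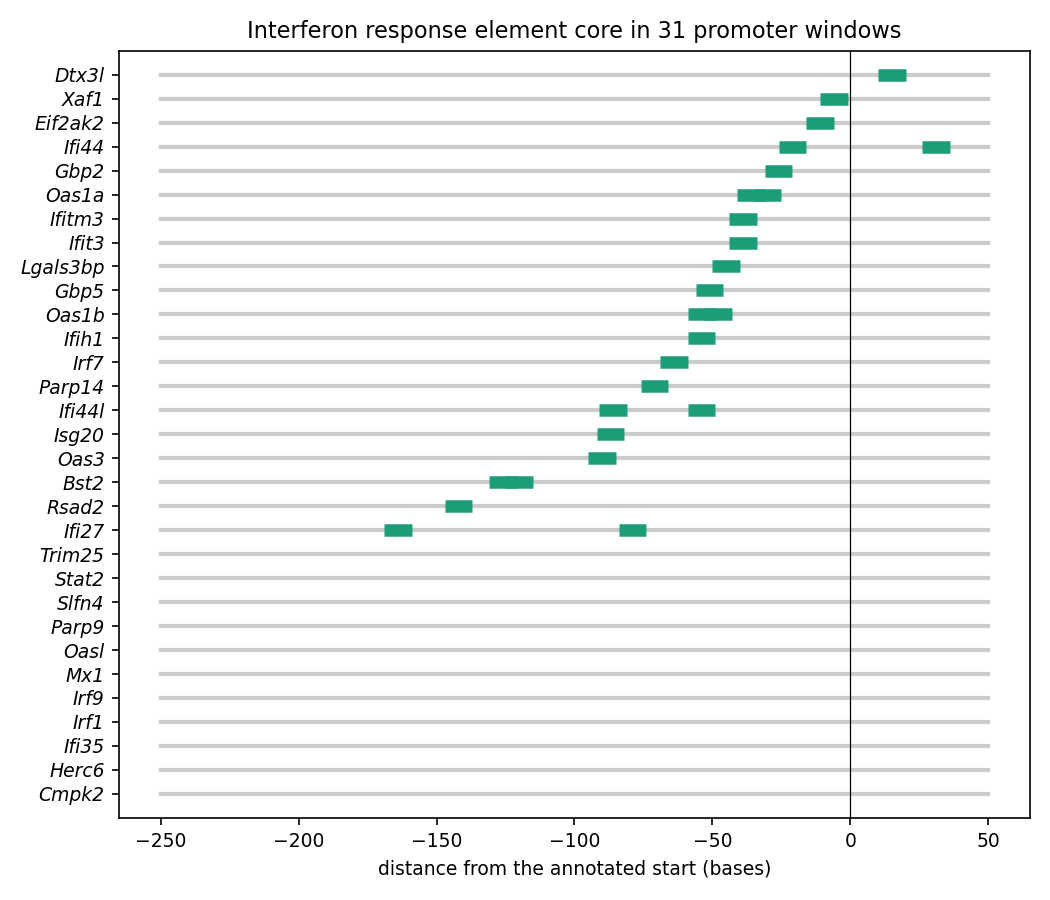
Matches to the response element core in the promoter windows of 31 members, 1 line per gene, by distance from the annotated start in bases. The green blocks of 20 genes all start between -169 and 26, and 11 genes have none.

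The arrays report log2 signals, on which a difference of 1 is a doubling. The arrays hold 1153 negative control rows, and the 95th percentile of their signals on an array served as its background limit. That limit was 8.17 and 8.09 on the TAC-R arrays, 8.22 and 8.12 on the TAC arrays, and 8.45 and 8.55 on the normal arrays. The limit was thus highest on the normal arrays, and the part of this in the results was not tested. Of the 38 members, 6 lay above the limit on all 6 arrays, namely Bst2, Eif2ak2, Ifi27, Ifitm3, Lgals3bp and Trim25. A further 8 did so on some arrays (Dtx3l, Gbp2, Ifi27l2b, Ifit2, Irf9, Mx2, Rsad2 and Usp18) and 24, or 63.2%, on none. Of all named genes 66.4% were above it on no array. Where a group lay below the limit a fold is only a lower bound, and where the brighter group did not pass it either the size of a difference is not measured. The labels name cultured fibroblasts in their extraction field, but whole heart elsewhere. All 9 measured heart muscle markers lay above the limit on all arrays, with Actc1, Mb, Myl3 and Pln at the ceiling of 19.93. Of these 9, the row named Myh7, for the slow myosin heavy chain, was called lower between TAC and normal and higher between TAC-R and TAC. It had 19.93 and 19.91 on the TAC-R arrays, 17.87 and 17.76 on the TAC arrays, and 19.91 and 19.93 on the normal arrays. The TAC-R and normal signals lay at or near the ceiling, so these differences are lower bounds. Myh6, the other heavy chain on the marker list, had no row with its symbol. Whether the Myh7 row also reads other myosin transcripts was not tested, so it is uncertain as a separate gene. In whole tissue, fewer cells of a type and less RNA per cell cannot be told apart.

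The first comparison set TAC hearts against normal ones. Averaged over the 38 members, the signal was 7.45 and 7.43 on the TAC arrays and 6.54 and 6.47 on the normal arrays. Of the members 9 rose and 29 did not pass limma's test, with none lower. The 9 were Oas1b, Ifi27, Usp18, Mx1, Ifi27l2b, Oas2, Lgals3bp, Irf7 and Slfn4, and they were 20.5% of the 44 rows called higher in the whole table and 23.7% of the members. The members were chosen with earlier results of these data known. Shares of members set beside all rows, here and in the later comparisons, are therefore descriptions and not tests of the list. Of all 23188 tested rows 0.254% were called, 0.19% higher and 0.0647% lower (Benjamini-Hochberg adjusted p under 0.05). Both TAC arrays lay above both normal arrays in 29 members, against 21.9% of all rows, and below them in 1, Ifit1, against 21.3%. At an unadjusted p under 0.05, 24 members were higher and 1 lower, against 5.43% and 4.89% of all rows. The median difference of the members was 0.96 log2 units, with a range from -1.28 to 2.32, against a median of 0.02 over all named genes. Among the 6 members above the limit on all arrays the median was 0.82, against 0.07 over the 3871 named genes of that class. Among the 24 on no array it was 0.81, against -0.02 over 9984 genes, and these are differences between signals in the background. The counts rest on every array of the comparison, since 0 members passed without normal replicate 1, normal replicate 2, TAC replicate 1 or TAC replicate 2, and 3 passed without either TAC-R array.

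**Figure D2:**
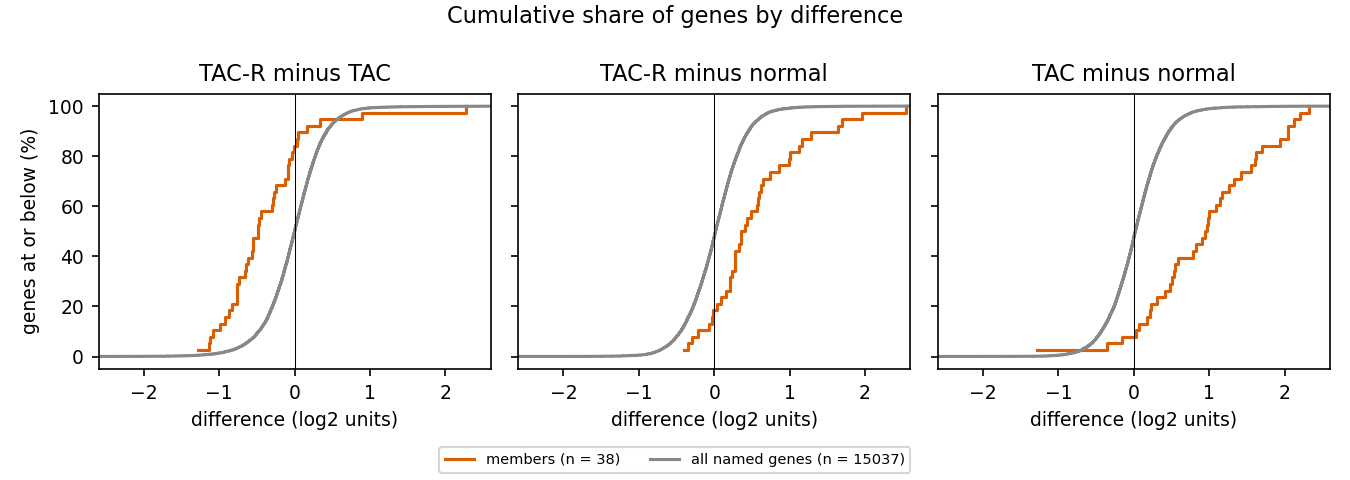
Cumulative share of genes (in percent) by difference in log2 units, for the 38 members and for all 15037 named genes, in 3 comparisons. The members' curve lies to the right of that of all genes for TAC minus normal (medians 0.96 and 0.02), less far for TAC-R minus normal (0.38 and 0.02), and over most of its length to the left for TAC-R minus TAC (-0.48 and 0.00). The members were chosen with earlier results of these data known.

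Of the transcription factors, Irf7, which drives the interferon genes themselves, rose under TAC. It had 7.07 and 6.95 on the TAC-R arrays, 7.02 and 6.95 on the TAC arrays, and 5.32 and 5.42 on the normal arrays. The TAC-R and TAC signals covered the same range, and the normal ones were well below. The difference between TAC and normal was 1.61 ± 0.21 log2 units (SE, adjusted p = 0.0191), although every Irf7 signal lay below the limit of its array, so its size is not measured. Irf9, the DNA-binding part of the complex that type I interferon activates, had 7.83 and 7.30 on the TAC-R arrays, 8.33 and 8.32 on the TAC arrays, and 7.13 and 7.34 on the normal arrays. Only its TAC signals passed the limit, and the difference of 1.09 ± 0.24 between TAC and normal did not pass the test (adjusted p = 0.191). Stat2 and Irf1, an activator also induced by interferon gamma, differed by 0.22 ± 0.26 and 0.17 ± 0.22 between TAC and normal (adjusted p = 0.806 and 0.82). Neither was above the limit on any array.

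Among the genes of the Isg15 system, in which a ubiquitin-like protein is joined to other proteins, Usp18 rose. Usp18 removes Isg15 again and also blocks the type I interferon receptor from inside the cell. It had 8.33 and 8.33 on the TAC-R arrays, 9.53 and 9.38 on the TAC arrays, and 7.49 and 7.17 on the normal arrays. The 3 groups did not overlap, with TAC highest and TAC-R between. Under TAC it rose by 2.12 ± 0.22 log2 units over the normal arrays (adjusted p = 0.00818), at least 1.94-fold because the normal signals lay below their limit. Isg15 itself was dim, at 4.44 and 4.34 on the TAC-R arrays, 5.14 and 4.74 on the TAC arrays, and 4.41 and 3.66 on the normal arrays. Its difference between TAC and normal was 0.90 ± 0.29 (adjusted p = 0.363). Trim25, a ubiquitin ligase that acts on an RNA sensor, was above the limit throughout, at 9.14 and 8.69 on the TAC-R arrays, 9.15 and 8.70 on the TAC arrays, and 9.42 and 9.12 on the normal arrays. Its difference between TAC and normal was -0.35 ± 0.26 (adjusted p = 0.681), and the groups overlapped. Parp9, Dtx3l and Parp14, of which the first 2 form a complex that modifies histones and viral proteins, are next to each other in the RefSeq gene order. Between TAC and normal they differed by 0.41, 0.55 and 0.83 log2 units, and none passed (adjusted p = 0.566, 0.562 and 0.248). TAC replicate 2 stood apart from TAC replicate 1 for Dtx3l, at 8.86 and 7.94.

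Among the genes for sensors of double-stranded RNA and for RNA degradation, the oligoadenylate synthetase genes Oas1b and Oas2 rose, all at signals below the limit. These enzymes make the messenger that switches on the RNA-cutting RNase L. Oas1b had 5.80 and 5.97 on the TAC-R arrays, 6.79 and 6.22 on the TAC arrays, and 4.39 and 3.98 on the normal arrays. The groups did not overlap, and the rise under TAC was 2.32 ± 0.27 log2 units (adjusted p = 0.0119). Oas2 had 4.14 and 4.32 on the TAC-R arrays, 5.67 and 5.36 on the TAC arrays, and 3.75 and 3.41 on the normal arrays. It rose by 1.94 ± 0.23 under TAC (adjusted p = 0.0154), and its TAC-R signals were nearer to the normal ones. Whether probes for the Oas family also bind transcripts of its other members was not tested, so its genes are uncertain as separate genes. Eif2ak2, the kinase that stops translation when double-stranded RNA is present, was the 1 sensor above the limit on all arrays. It had 10.45 and 10.48 on the TAC-R arrays, 10.78 and 10.75 on the TAC arrays, and 10.30 and 10.21 on the normal arrays. Its groups did not overlap, and the difference between TAC and normal was 0.51 ± 0.20 (adjusted p = 0.453). Of the other 7, Ifih1, a sensor of long double-stranded RNA, differed by 0.98 between TAC and normal and Oas1a by 1.33 (adjusted p = 0.194 and 0.135). Oasl, Oas3, Isg20, Zbp1 and Dhx58 differed by 0.07 to 0.78 log2 units and did not pass.

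Of the antiviral effectors, 1 of 12 passed under TAC, and with an intensity trend in the limma moderation 5 of 12 did. Mx1, a dynamin-like GTPase that blocks viral replication, had 5.97 and 5.56 on the TAC-R arrays, 6.80 and 6.58 on the TAC arrays, and 4.98 and 4.30 on the normal arrays. It rose by 2.05 ± 0.28 log2 units under TAC (adjusted p = 0.0309), with the groups apart and every signal below the limit. Among the effectors that did not pass, Ifitm3 lay above the limit on 6 arrays and Gbp2 on 5. Ifitm3, which hinders virus entry at membranes, had 11.87 and 11.76 on the TAC-R arrays, 12.59 and 12.78 on the TAC arrays, and 11.47 and 11.61 on the normal arrays. Its difference between TAC and normal was 1.14 ± 0.21 log2 units, 2.21-fold, and did not pass (adjusted p = 0.103). It passed with the intensity trend (adjusted p = 0.00397) and with dim rows left out (adjusted p = 0.0392). Gbp2, a guanylate-binding protein induced by interferon gamma above all, had 8.50 and 8.65 on the TAC-R arrays, 9.88 and 9.44 on the TAC arrays, and 8.59 and 8.38 on the normal arrays. The TAC signals stood above the others, which overlapped, and the difference between TAC and normal was 1.17 ± 0.24 (adjusted p = 0.135, and 0.0363 with the trend).

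Ifit2, which binds RNA and limits translation, had 7.88 and 8.73 on the TAC-R arrays, 9.76 and 9.10 on the TAC arrays, and 8.0 and 7.46 on the normal arrays. The difference between TAC and normal was 1.70 ± 0.35, at least 1.92-fold (adjusted p = 0.142, and 0.0287 with the trend). Rsad2, known as viperin, makes a nucleotide that ends viral RNA chains. It had 7.89 and 7.63 on the TAC-R arrays, 8.90 and 8.27 on the TAC arrays, and 7.42 and 6.91 on the normal arrays. Rsad2 differed by 1.42 ± 0.29 between TAC and normal, at least 1.07-fold (adjusted p = 0.135, and 0.039 with the trend), and its direct neighbour in the genome, the nucleotide kinase gene Cmpk2, by 0.95 ± 0.26 (adjusted p = 0.288). Bst2, the tetherin that holds virus particles at the cell surface, was above the limit throughout, at 12.60 and 12.45 on the TAC-R arrays, 12.82 and 12.73 on the TAC arrays, and 12.59 and 12.50 on the normal arrays. Its difference between TAC and normal was 0.23 ± 0.21, with an interval from -0.25 to 0.70 (adjusted p = 0.743). Mx2 and Gbp5 differed by 1.00 and 0.97, Ifit3 by 0.54 and Ifitm1 by 0.03 (adjusted p = 0.305, 0.193, 0.637 and 0.98). Ifit1, of the same cluster of genes as Ifit2 and Ifit3, had its lowest signals under TAC, at 5.36 and 4.79 on the TAC-R arrays, 2.53 and 3.08 on the TAC arrays, and 4.09 and 4.07 on the normal arrays. Its difference between TAC and normal was -1.28 ± 0.28 (adjusted p = 0.178), and its TAC signals were under the negative controls' medians on those arrays, 4.39 and 4.42.

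Of the remaining members 4 of 6 passed under TAC. Ifi27, a small protein of the mitochondrial and nuclear membranes, had 12.52 and 12.47 on the TAC-R arrays, 11.95 and 12.38 on the TAC arrays, and 10.27 and 9.64 on the normal arrays. It was the member with the largest difference among those above the limit on all arrays, and it rose by 2.21 ± 0.27 log2 units, 4.62-fold, under TAC (adjusted p = 0.0165). Its direct neighbour Ifi27l2b, of the same family, had 8.36 and 8.49 on the TAC-R arrays, 8.79 and 8.23 on the TAC arrays, and 6.29 and 6.65 on the normal arrays. It rose by 2.04 ± 0.26 (adjusted p = 0.0191), at least 1.01-fold against the limit of the normal arrays. Whether probes of either gene also bind transcripts of the other was not tested, so they are uncertain as separate genes. Lgals3bp, a secreted glycoprotein that binds galectins, had 12.56 and 12.06 on the TAC-R arrays, 12.82 and 12.70 on the TAC arrays, and 11.29 and 10.99 on the normal arrays. It rose by 1.62 ± 0.25, 3.07-fold, and was close to the threshold (adjusted p = 0.0491). Slfn4, a schlafen gene known from mouse myeloid cells, had 7.43 and 7.58 on the TAC-R arrays, 7.79 and 7.78 on the TAC arrays, and 6.28 and 6.17 on the normal arrays. It rose by 1.56 ± 0.21 at signals below the limit (adjusted p = 0.0233). Ifi44 differed by 1.26 ± 0.27 and Ifi35 by -0.15 ± 0.33 between TAC and normal (adjusted p = 0.179 and 0.916).

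**Figure D3:**
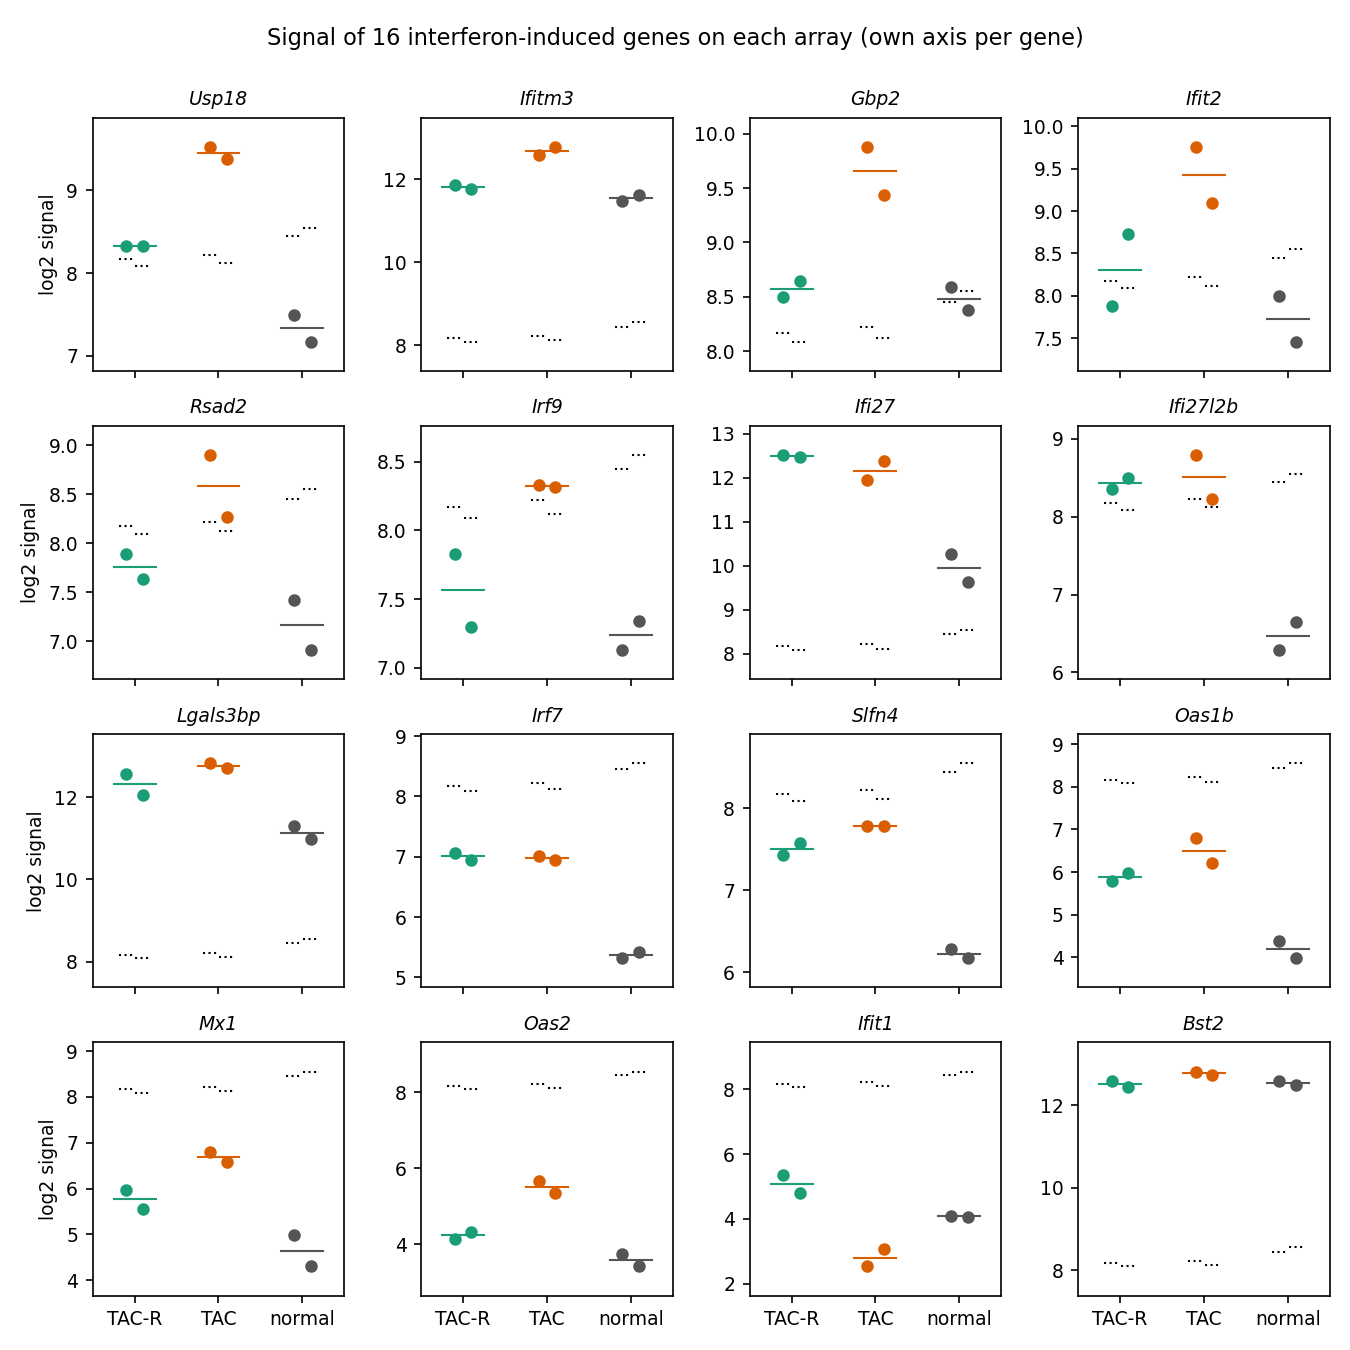
Log2 signal of 16 members on each of the 6 arrays, grouped as TAC-R, TAC and normal, with a line at the mean of each pair and a dotted mark at the background limit of each array. Irf7 and Ifi27 have TAC-R signals of 7.07 and 6.95 and of 12.52 and 12.47, beside or above their TAC signals, whereas for Gbp2 the TAC-R signals of 8.50 and 8.65 lie among the normal ones.

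The second comparison set released (TAC-R) hearts against TAC hearts. The members averaged 7.07 and 7.03 on the TAC-R arrays and 7.45 and 7.43 on the TAC arrays. Ifit1 rose and 37 members did not pass, with none lower, against 0.431% of all rows called, 0.224% higher and 0.207% lower. Both TAC-R arrays lay below both TAC arrays in 25 members, against 20.4% of all rows, and above them in 4, against 20.1%. At an unadjusted p under 0.05, 16 members were lower and 2 higher, against 6.2% and 4.79% of all rows. The median difference was -0.48 log2 units, with a range from -1.28 to 2.27, against 0.00 over all named genes. This comparison uses the same TAC arrays as the first, so each comparison's values are given side by side and not as separate support. Under the 6 fits that left out 1 array each, 0 members passed.

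The largest negative difference was that of Oas2, -1.28 ± 0.23 between TAC-R and TAC, followed by Ifit2 at -1.13 ± 0.35, Usp18 at -1.12 ± 0.22 and Gbp2 at -1.08 ± 0.24 (adjusted p = 0.0706, 0.278, 0.0916 and 0.132). For Usp18 and Gbp2 these are measured folds of 2.18 and 2.12. Every Oas2 signal lay below the limit, so the size of its difference is not measured. Ifitm3 had a difference of -0.87 ± 0.21, 1.83-fold (adjusted p = 0.169). With an intensity trend in the limma moderation, Usp18, Oas2, Gbp2 and Ifitm3 passed (adjusted p = 0.0273, 0.0444, 0.0372 and 0.0171), and with dim rows left out Usp18 passed (adjusted p = 0.0355). Mx1 had a difference of -0.93, Rsad2 of -0.83, Mx2 of -0.77, Irf9 and Gbp5 of -0.76 each, and Oas1b of -0.62, none past the threshold (adjusted p = 0.265, 0.337, 0.368, 0.294, 0.24 and 0.443). Ifit1 rose by 2.27 ± 0.28 (adjusted p = 0.0157), with no signal above the limit in either group, so the size of this rise is not measured.

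For several genes that were called under TAC, the TAC-R and TAC signals differed by less than the test could separate. The difference between TAC-R and TAC was 0.03 for Irf7, with a 95% interval from -0.44 to 0.50 (adjusted p = 0.979). It was 0.33 for Ifi27, with an interval from -0.29 to 0.95 (adjusted p = 0.721). For Ifi27l2b it was -0.09, from -0.68 to 0.51, for Slfn4 -0.28, from -0.75 to 0.19, and for Lgals3bp -0.45, from -1.01 to 0.11 (adjusted p = 0.94, 0.696 and 0.566). Those intervals allow differences of about 1 log2 unit for Ifi27 and Lgals3bp. Whether such genes differ as a class from Usp18, Oas2 or Gbp2 was not tested.

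The third comparison set hearts released from TAC against normal hearts. The members averaged 7.07 and 7.03 on the TAC-R arrays, against 6.54 and 6.47 on the normal arrays. Ifi27, Irf7 and Ifi27l2b rose and 35 members did not pass, with none lower. These were 21.4% of the 14 rows called higher in the whole table, where 0.0906% of rows were called, 0.0604% higher and 0.0302% lower. Both TAC-R arrays lay above both normal arrays in 22 members, against 20.6% of all rows, and below them in 1, Irf1, against 20.3%. At an unadjusted p under 0.05, 12 were higher and 0 lower, against 5.36% and 5.32% of all rows. The median difference was 0.38 log2 units, with a range from -0.40 to 2.54, against 0.02 over all named genes.

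Ifi27 rose by 2.54 ± 0.27 log2 units over the normal arrays, 5.83-fold (adjusted p = 0.0185), Irf7 by 1.64 ± 0.21 (adjusted p = 0.0437) and Ifi27l2b by 1.96 ± 0.26 (adjusted p = 0.0493). The sizes for Irf7 and Ifi27l2b are not measured, because their TAC-R signals did not pass the limits needed. Without either normal array or either TAC-R array 0 members passed, and without either TAC array only Ifi27 did (adjusted p = 0.0345). Oas1b differed by 1.70 ± 0.27, Slfn4 by 1.28 ± 0.21 and Lgals3bp by 1.17 ± 0.25, the last 2.25-fold, and Mx1 by 1.12 ± 0.28 (adjusted p = 0.0846, 0.0923, 0.183 and 0.266). Usp18 differed by 1.00 ± 0.22 with its groups apart (adjusted p = 0.212). Gbp2, at 0.09 with an interval from -0.45 to 0.63, and Ifitm3, at 0.27 with an interval from -0.21 to 0.75, did not pass either (adjusted p = 0.926 and 0.682). Bst2 differed by -0.03 and Eif2ak2 by 0.21 (adjusted p = 0.979 and 0.762).

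**Figure D4:**
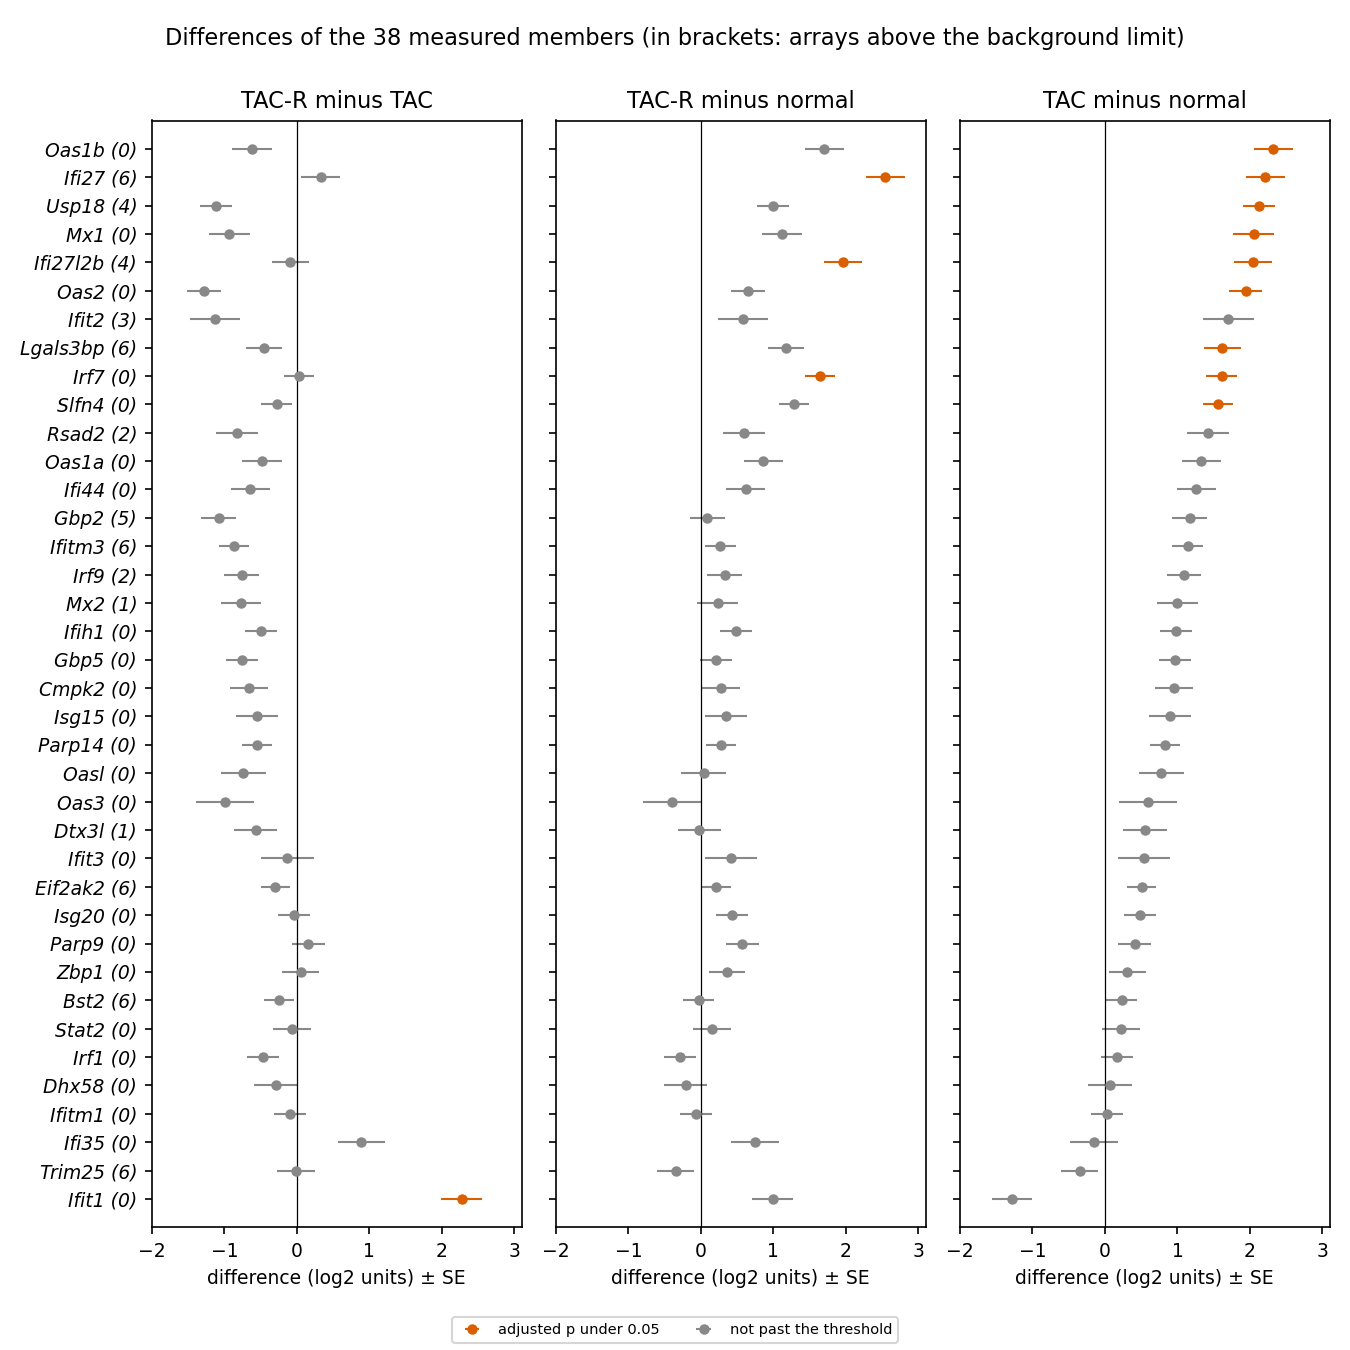
Differences in log2 units with standard errors for the 38 measured members in 3 comparisons, ordered by the difference between TAC and normal. Orange marks the calls, 9 for TAC minus normal, 3 for TAC-R minus normal and 1 for TAC-R minus TAC, and the number after a gene is how many arrays lay above the background limit.

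Transcript signals of genes upstream of these were read from lists of further interferon genes. They do not measure interferon protein or the activity of receptors and kinases. Of 17 ligand and receptor genes 11 were measured, and 0 passed limma's test in any comparison. At an unadjusted p under 0.05, 0 were higher or lower between TAC and normal, 1 was higher between TAC-R and TAC, and 1 was higher and 1 lower between TAC-R and normal. All 6 measured interferon genes, Ifna2, Ifna4, Ifna5, Ifnb1, Ifnk and Ifng, were below the limit on all arrays. For the type I gene Ifnb1 the signals were 3.05 and 3.29 on the TAC-R arrays, 2.85 and 2.74 on the TAC arrays, and 3.23 and 2.94 on the normal arrays. For Ifng, the gamma interferon, they were 3.91 and 3.15, 3.22 and 3.41, and 3.39 and 3.33 on the TAC-R, TAC and normal arrays. The receptor genes Ifnar1, Ifngr1, Ifngr2 and Il10rb were above the limit on all arrays and differed by 0.11 to 0.40 log2 units between TAC and normal (adjusted p = 0.91, 0.675, 0.622 and 0.68). Ifnar2 had no row with its symbol.

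Of 16 genes of kinases, STATs, other interferon regulatory factors and inhibitors 15 were measured and 0 passed in any comparison. Between TAC and normal their median difference was 0.19, and 0 were higher and 1 lower at an unadjusted p under 0.05. Between TAC-R and TAC 0 were higher and 1 lower by that measure, and between TAC-R and normal 1 and 1. The kinase gene Jak1 was bright and differed by 0.32 between TAC and normal (adjusted p = 0.682). Stat3, which carries signals of the interleukin 6 family, had 13.14 and 12.91 on the TAC-R arrays, 12.88 and 12.36 on the TAC arrays, and 12.49 and 12.37 on the normal arrays, with a difference of 0.60 between TAC-R and normal (adjusted p = 0.442). The receptor inhibitors Socs1 and Socs3 lay below the limit on all arrays. Of 23 symbols of nucleic acid sensors and adaptors 14 were measured and 0 passed in any comparison. Between TAC and normal their median difference was 0.48, and 2 were higher and 1 lower at an unadjusted p under 0.05. Between TAC-R and TAC 1 was higher and 2 lower, and between TAC-R and normal 3 were higher and 0 lower. The adaptor gene Mavs, bright at 13.22 to 13.58 over all arrays, differed by -0.03 (adjusted p = 0.98), and the RNA-editing enzyme gene Adar by 0.51 between TAC and normal (adjusted p = 0.486).

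Of 69 other interferon-induced genes 41 were measured and 0 passed in any comparison. Their differences between TAC and normal had a median of 0.33 and a range from -0.37 to 1.34, and 12 were higher and 0 lower at an unadjusted p under 0.05. Apol9a, an apolipoprotein L gene, led at 11.17 and 10.71 on the TAC-R arrays, 11.75 and 11.72 on the TAC arrays, and 10.49 and 10.31 on the normal arrays. Its groups did not overlap, and the difference between TAC and normal was 1.34 (adjusted p = 0.0895). With dim rows left out it passed, as did Irgm, an immunity-related GTPase gene (adjusted p = 0.0392 each). Serping1, an inhibitor of complement, had 10.53 and 9.96 on the TAC-R arrays, 11.17 and 10.98 on the TAC arrays, and 10.28 and 10.45 on the normal arrays. It differed by 0.71 between TAC and normal and by -0.83 between TAC-R and TAC (adjusted p = 0.403 and 0.261), and the nuclear body gene Sp100 by 0.64 between TAC and normal (adjusted p = 0.398). The chemokine gene Cxcl11 had its highest signals after release, at 9.92 and 9.81 on the TAC-R arrays, 8.73 and 9.20 on the TAC arrays, and 8.85 and 8.59 on the normal arrays. Its differences were 0.90 between TAC-R and TAC and 1.15 between TAC-R and normal (adjusted p = 0.209 and 0.182). The interferon gamma targets Cxcl9, Ciita and Ido1, picked after their values were seen, lay below the limit on all arrays. They differed by 0.15, -0.19 and -0.04 between TAC and normal (adjusted p = 0.906, 0.867 and 0.967) and do not stand for all targets of interferon gamma. The immunity-related GTPase genes Igtp, Irgm and Ifi47 of the same list differed by 0.53, 1.16 and 0.50. Their TAC and normal signals did not overlap, and none passed (adjusted p = 0.472, 0.103 and 0.457). Between TAC-R and TAC the median of the 41 was -0.14, with 1 higher and 7 lower at an unadjusted p under 0.05. Between TAC-R and normal it was 0.13, with 5 higher and 2 lower.

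Markers of other cells that a heart can hold moved with some of the groups. The mean log2 signal of 8 red cell markers was 11.17 and 11.29 on the TAC-R arrays, 12.50 and 12.35 on the TAC arrays, and 10.33 and 10.58 on the normal arrays, the same order as the members' mean. Of the 8, 5 rose under TAC, namely Hbb, Hbb-b1, Hbb-bs, Alas2 and Slc4a1. Between TAC-R and TAC 3 of them, Hbb-b1, Hbb-bs and Slc4a1, fell, and between TAC-R and normal 1, Alas2, rose. Ahsp and Epb42 lay below the limit on all arrays. Their summed linear signals were 1322563 and 1416011 on the TAC-R arrays, 1870921 and 1801392 on the TAC arrays, and 782303 and 829159 on the normal arrays. The TAC sums are lower bounds, because Hba-a1, an alpha globin, lay at the ceiling of 19.93 on both TAC arrays, against 19.15 and 19.16 on the normal arrays. The 16 macrophage and monocyte markers summed to 5888 and 4706 on the TAC-R arrays, 7403 and 8172 on the TAC arrays, and 5666 and 4998 on the normal arrays. Their mean log2 signals were 7.10 and 6.98 on the TAC-R arrays, 7.22 and 7.22 on the TAC arrays, and 6.93 and 6.75 on the normal arrays, again in that order, although the sums of these markers overlapped between TAC-R and normal. Between TAC and normal 0 of them passed, with 7 higher and 1 lower at an unadjusted p under 0.05. The macrophage markers Cd68, Csf1r and 8 others of the 16 were below the limit on all arrays, and Lyve1, also a marker of lymph vessels, was the 1 called between TAC-R and TAC, higher in TAC-R. The 8 fibroblast markers summed to 118475 and 90891 on the TAC-R arrays, 178805 and 190519 on the TAC arrays, and 166940 and 131636 on the normal arrays. Their mean log2 signals were 10.23 and 9.84 on the TAC-R arrays, 11.38 and 11.25 on the TAC arrays, and 10.52 and 10.45 on the normal arrays. Between TAC and normal all 8 differences were above 0, with a median of 0.82, and 0 passed limma's test while 6 were higher at an unadjusted p under 0.05. Between TAC-R and TAC all 8 were below 0, with a median of -1.42, and the collagen genes Col1a2 and Col3a1 fell (adjusted p = 0.0469 and 0.0269). The 7 endothelial markers summed to 43252 and 25472 on the TAC-R arrays, 58252 and 54427 on the TAC arrays, and 61951 and 62560 on the normal arrays, with 0 called in any comparison and 5 lower at an unadjusted p under 0.05 between TAC-R and TAC. The endothelial sums are set mostly by Cdh5, the brightest of the 7. Mean log2 signals of the 7 were 10.51 and 10.08 on the TAC-R arrays and 10.98 and 10.83 on the TAC arrays. They were 10.70 and 10.91 on the normal arrays and overlapped those of TAC. Between TAC and normal 4 of the 7 differences were above 0 and 3 below, with a median of 0.14. The part of the cells of all these lists in the members' differences was not tested.

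Of 9 T cell markers 8 were below the limit on all arrays, the exception being Cd4, which rat macrophages also carry. The sums of the 9 were 1426 and 747 on the TAC-R arrays, 2248 and 1994 on the TAC arrays, and 1095 and 973 on the normal arrays. Cd4 made up most of each sum. The mean log2 signals of the 9 were 4.59 and 4.43 on the TAC-R arrays and 4.96 and 4.59 on the TAC arrays. On the normal arrays they were 4.60 and 4.75, within the range of the TAC ones. All 6 natural killer cell, all 6 neutrophil and the 1 measured B cell marker were below the limit too, and so were 4 of 5 markers of plasmacytoid dendritic cells, the main makers of type I interferon in blood. The fifth, Tcf4, is also expressed by many other cells. The sums of these 5 were 4951 and 4167 on the TAC-R arrays, 5308 and 5140 on the TAC arrays, and 5761 and 6276 on the normal arrays. Tcf4 made up nearly all of each.

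**Figure D5:**
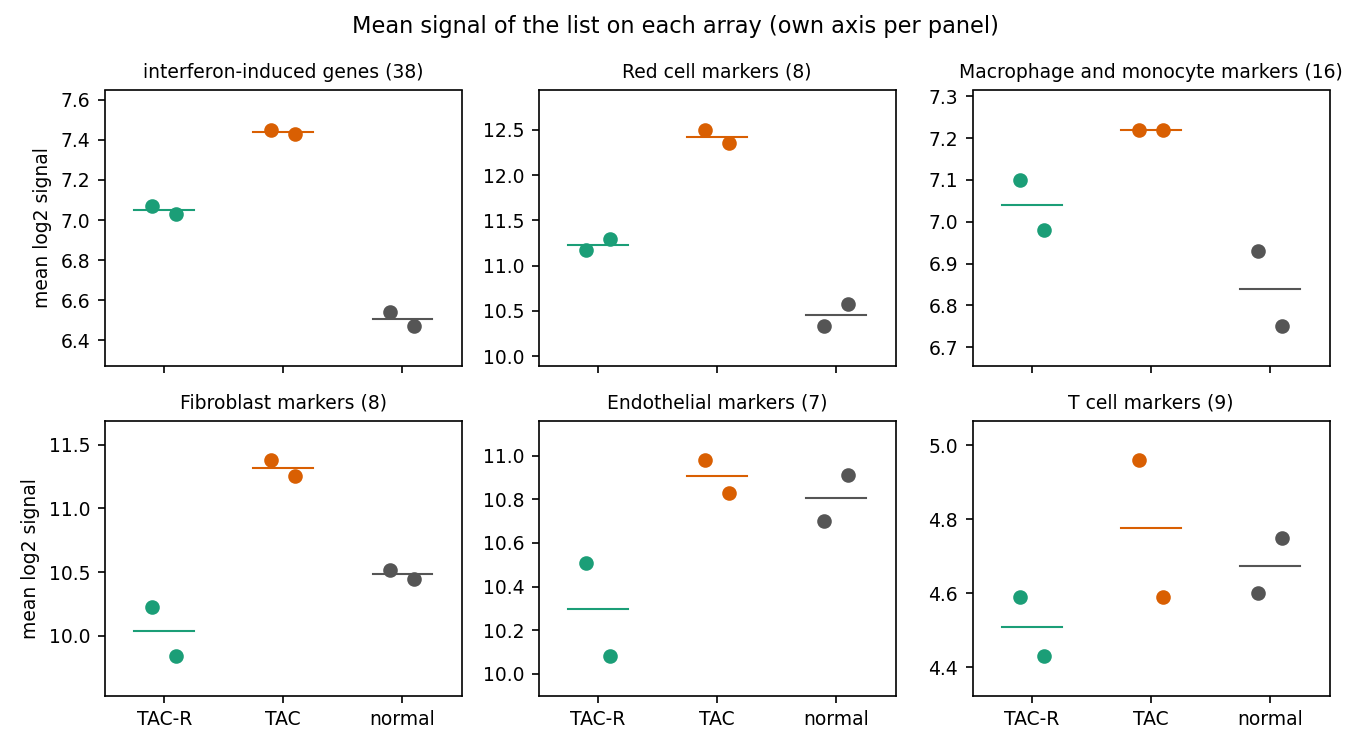
Mean log2 signal of the 38 members and of 5 lists of cell type markers on each array, with a line at the mean of each pair and an axis of its own per panel. The members, the red cell markers and the macrophage markers share the order TAC above TAC-R above normal, with no overlap between groups, and the fibroblast markers have their lowest values, 10.23 and 9.84, on the TAC-R arrays. Of the 16 macrophage markers 10 lay below the background limit on all arrays, and their summed signals overlapped between TAC-R and normal.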

How the data were processed

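Whole-heart RNA of 6 samples was read on Clariom S Rat arrays, 2 per group, and the number of rats behind them is not stated. The deposited log2 values were used as given. Per the labels, the authors computed them with Expression Console by robust multi-array averaging over core exons. The software version, background settings and scan batches are not stated in the labels or the table. This averaging equalises the arrays' distributions, so a change common to all transcripts is invisible. Of 24834 rows, 1646 control rows were left out of the tests, leaving 23188, of which 15049 had 1 gene symbol in the platform's annotation, for 15037 genes. limma 3.58.1 in R 4.3.3 estimated a mean for each group from all 6 arrays together, without covariates, with 3 residual and 5.71 prior degrees of freedom. Calls needed an adjusted p (Benjamini-Hochberg, over all tested rows) under 0.05. Values after ± are standard errors of the model, and intervals are its 95% intervals. The smallest p that an exact two-sided permutation test allows for 2 arrays against 2 is 0.33, so the tests of single genes lean on the spread shared over all rows. The number of arrays limits the precision.

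A bound sets the mean of the brighter group against the mean of the background limits of the dimmer group's arrays. Members and other listed genes were matched by symbol. Values on every array are given for members that passed in a comparison or lay above the limit on both arrays of a group. Of the other lists, some of the genes above the limit on all arrays with 1 of the 3 largest differences of their list were named. Others that met this rule, such as Trafd1 and Jak2, were not. Interferons, receptors and STATs were named by their levels. Isg15 (for its values on every array), Irgm, Igtp, Ifi47, Cxcl9, Ciita, Ido1, Socs1 and Socs3 were chosen after their values were seen. The members and lists were chosen with earlier results of these data known. The limma script was tested on simulated data. Alternatives were an intensity trend, a filter on dim rows, control rows kept in, only the groups compared, other scalings, each array left out and the replicate number as a block.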

Additional observations from a re-analysis of the deposited data

How the results depend on the processing

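Under every alternative the median difference of the members kept its sign, at 0.90 to 1.09 between TAC and normal, -0.49 to -0.44 between TAC-R and TAC and 0.38 to 0.44 between TAC-R and normal, and at 0.86 to 0.99, -0.54 to -0.38 and 0.32 to 0.42 with 1 array left out. The number of calls did not hold, and the cause was not tested. Between TAC and normal 59 rows and 9 members were called, against 170 rows and 13 members with an intensity trend (Ifit2, Rsad2, Ifitm3 and Gbp2 gained), 39 rows and 5 members with control rows kept, 35 rows and 3 members with only those groups in the fit, and 36 rows and 4 members with the replicate block. Genes of the other interferon lists numbered 0, against 1 with the trend (Apol9a), 2 with dim rows left out (Irgm and Apol9a) and 1 with arrays centred on their median (Apol9a). Between TAC-R and TAC 100 rows (52 higher, 48 lower) and 1 member were called. The trend gave 344 rows (141 higher, 203 lower) and 5 members, dim rows left out 187 rows (79 higher, 108 lower), control rows kept 44 rows (29 higher, 15 lower), those groups alone 37 rows (24 higher, 13 lower) and 0 members, and the replicate block 47 rows (29 higher, 18 lower). Between TAC-R and normal 21 rows and 3 members were called, against 156 rows and 6 members with the trend, 68 and 5 with dim rows left out, 10 and 0 with control rows kept, 12 and 1 with those groups alone, 54 and 5 with arrays centred, and 11 and 0 with the replicate block. The other list gene then called with the trend was Cxcl11, 1 gene (adjusted p = 0.0432).

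With 1 array left out, rows called ranged from 0 to 35 between TAC and normal, 4 to 37 between TAC-R and TAC and 0 to 12 between TAC-R and normal, members called from 0 to 3, 0 to 0 and 0 to 1, and other list genes were 0 throughout. The lone array of a group is then assumed to vary like the others. Usp18, Oas1b and Oas2 passed without either TAC-R array. No called member changed sign under any alternative. Deviations of same-numbered arrays correlated at 0.012 for TAC and normal, -0.013 for TAC-R and TAC and -0.009 for TAC-R and normal. These values are taken over all tested rows and would miss a pairing that moves few of them. Whether the replicate numbers pair the samples is therefore not known. With the 90th percentile of the negative controls as the limit 13 members were above it on all arrays and 15 on none, and with their median 27 and 2, against 6 and 24. A mean over several rows of a gene was not run, since no member had several. Signal over background limits the sizes given here, and 2 arrays per group limit all tests.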
